A study of Homo sapiens with 40 samples.

Results

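The mRNAs of 3 families of splicing regulators were followed across cell extracts: the SR proteins (SRSF genes), the heterogeneous nuclear ribonucleoproteins (HNRNP genes) and the CLK kinases. Members were the protein-coding genes whose symbols were SRSF with a number, began with HNRNP, or were CLK1 to CLK4. Of 57939 genes in the total RNA table, 43 were members, with 12 SRSF, 27 HNRNP and 4 CLK genes. The polyA table of 58336 genes held 42 of them, because the identifier of HNRNPA1P48 carries another name there. The rule used names only and no measured value.

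SR proteins bind exonic enhancer sequences through RNA recognition domains and recruit the spliceosome through arginine and serine rich tails, whereas many hnRNPs coat introns and repress or shift splice sites. CLK kinases phosphorylate the tails of SR proteins in the nucleus and release them from storage speckles. Transcripts of these families are known for introns that stay unspliced in the nucleus and for exons that carry early stop codons, through which the proteins limit their own mRNAs.

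All cells were of the wild-type H1 human embryonic stem cell line, an established line grown on matrigel. They were taken undifferentiated (day 0), or on day 3 or day 5 of a mesoderm protocol that began with 10 ng/mL BMP4 for 1 day and continued with bFGF at 2.5 ng/mL in the same serum-containing medium. On each day a kit gave cytoplasmic (CE), membrane (ME), soluble nuclear (SNE), micrococcal nuclease-released chromatin-bound nuclear (CBNE) and pellet (PE) extracts, and libraries named INPUT were taken as unfractionated cells. There were 36 total RNA libraries, 2 per extract and day, and 4 polyA RNA libraries of day 0 cytoplasm and nucleus, 2 each. Whether the 2 libraries of a group came from separate cultures is not given in the labels, and the p-values below therefore measure only the spread between libraries, which may be technical.

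Values are TPM, a share of each library scaled by gene length, so the level of 1 gene depends on all other RNA in the extract and says nothing of RNA per cell. Among genes with 1 transcript, 99.4% to 99.5% of low polyA values came to whole reads by exon length, against 27.9% to 41.4% in total RNA. Steps between the members' total RNA values matched the whole gene span with introns instead. Whether reads in introns were counted is not given, and their part in the total RNA values was not tested. A lower TPM can come from fewer cells that carry an mRNA or from less of it per cell, and these cannot be told apart here. In SNE the summed level of 3 nuclear RNAs (MALAT1, NEAT1, KCNQ1OT1) was 9709 to 10009 TPM on day 0 against 2224 to 2231 TPM in CE, and 5 cytoplasmic mRNAs went the other way, with 4080 to 4126 TPM in SNE and 19244 to 19994 TPM in CE. Mitochondrial mRNA was also far higher in SNE than in CE on day 0 (6 genes, 111647 to 114579 TPM against 8519 to 9382 TPM), and its part in the contrast was not tested. A read on a single-exon gene of 1 kb was worth an estimated 0.707 to 1.81 TPM in CE, ME, SNE and INPUT, 3.37 to 30.8 TPM in PE and 13.8 to 61.8 TPM in CBNE, so PE and CBNE were shallow. Of 5 stem cell markers, 4 were present in INPUT on day 0 and SOX2 was listed at 0 in all 36 total RNA libraries.

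The reference annotation (GENCODE 29, GRCh38) shows where retained introns of these mRNAs are described, and the following sequences mark the sites named later. It does not say where in the cell a form lies. An intron was counted as kept when an annotated retained-intron transcript spans an intron of a coding transcript of the same gene. CLK1 and CLK4 have the same arrangement: an exon of 91 bases lies between 2 kept introns in both genes. In CLK1 the exon is at chr2:200860125-200860215 on the minus strand, between kept introns of 1022 and 378 bases. In CLK4 it is at chr5:178617344-178617434 on the minus strand, between kept introns of 1121 and 395 bases. The windows below run 5′ to 3′ across the start of each kept intron, with the end of the exon in lower case and the first intron bases in capitals.
CLK1, before the 91-base exon, chr2:200861213-200861257: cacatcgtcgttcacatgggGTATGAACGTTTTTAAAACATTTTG
CLK4, before the 91-base exon, chr5:178618531-178618575: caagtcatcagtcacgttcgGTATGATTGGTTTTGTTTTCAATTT
CLK1, after the 91-base exon, chr2:200860100-200860144: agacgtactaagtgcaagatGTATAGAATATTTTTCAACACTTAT
CLK4, after the 91-base exon, chr5:178617319-178617363: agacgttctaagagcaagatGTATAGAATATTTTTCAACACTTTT
The last pair of windows is nearly the same in both genes, with 18 of 20 exon bases and 24 of 25 intron bases equal.

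The annotation also describes internal exons that occur only in transcripts marked for nonsense-mediated decay, the pathway that degrades mRNAs with early stop codons. The windows below show the end of the preceding exon in lower case and the first bases of such an exon in capitals, for 3 SR proteins whose results are given below: SRSF11 as the highest in SNE, SRSF6 as higher in polyA nucleus, and SRSF3 as lower in both.
SRSF11, exon of 109 bases, chr1:70231095-70231203, plus strand: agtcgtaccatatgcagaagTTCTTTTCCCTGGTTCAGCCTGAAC
SRSF6, exon of 268 bases, chr20:43459153-43459420, plus strand: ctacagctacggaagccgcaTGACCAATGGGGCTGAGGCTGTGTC
SRSF3, exon of 456 bases, chr6:36599821-36600276, plus strand: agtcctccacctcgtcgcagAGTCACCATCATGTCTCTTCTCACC
Such annotated forms were common in these families. A kept intron was annotated in 16 of the 37 members with enough signal to test (43.2%), against 23.4% of 14972 protein-coding genes tested. An exon found only in decay transcripts was annotated in 15 of 37 (40.5%), against 18.8% of all. The 15 include the readthrough HNRNPUL2-BSCL2, which has no coding transcript to compare with, so that exons shared with its neighbour genes were counted. The tables hold 1 value per gene, so they do not show whether any of these introns or exons was present in the RNA.

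Not every member could be read. In total RNA, HNRNPA1, HNRNPUL2 and HNRNPCL1 to HNRNPCL4 were listed at 0 in all 36 libraries, and in polyA RNA HNRNPA1, SRSF2 and HNRNPCL1 to HNRNPCL4 were listed at 0 in all 4. HNRNPA1, a shuttling hnRNP that is among the most abundant in many cells, is therefore without a value of its own here. Of the 50-base words in its coding sequence, 83.2% occur in transcripts of other genes. The pseudogene HNRNPA1P10 held 281 and 277 TPM in CE on day 0, HNRNPA1L2 held 63.9 and 58.3 TPM, and HNRNPA1P48 held 7.44 and 7.09 TPM. Values of these copies may hold reads of HNRNPA1 and are uncertain for that reason. The same holds for HNRNPUL2-BSCL2, a readthrough whose exons all lie in those of other genes, and for SRSF1 and HNRNPA3, which share 90.7% and 89.8% of their coding words with other genes. HNRNPC and HNRNPL shared 53.5% and 45.6%, HNRNPK 28.6%, SRSF6 27.9% and HNRNPH2 20.9%. Exons of SRSF9 overlapped those of GATC on the other strand over 46.2% of their bases, those of SRSF2 overlapped MFSD11 over 36.7% and those of HNRNPU overlapped COX20 over 15.6%, and whether the counting used strand is not given in the sources used here.

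The first comparison asked which of these mRNAs held a larger share of the soluble nuclear extract than of the cytoplasmic extract. CLK1, CLK4, SRSF11, SRSF4 and HNRNPLL were the 5 highest members on all 3 days, and the other end held HNRNPA0, HNRNPH2, HNRNPA1P48, HNRNPL, HNRNPAB, SRSF9 and HNRNPF. A gene was called when its adjusted p in limma (Benjamini-Hochberg over all 24735 genes tested) was under 0.05. A total of 37 members passed the filter of at least 1 TPM in at least 2 libraries. Of these, 14 were called higher and 13 lower in SNE on day 0, 16 and 9 on day 3, and 17 and 12 on day 5. Among all genes, 39.8%, 40.1% and 44.1% were called higher on the 3 days and 11.6%, 9.28% and 10.9% lower, in all 51.4%, 49.4% and 55.0%. With a difference of at least 1 also required, 14, 11 and 16 members were left, beside 38.7%, 37.2% and 44.1% of all genes. The members' median difference was 0.12, 0.29 and 0.31 on the log2(TPM + 1) scale, beside 0.53, 0.54 and 0.65 for all genes. On day 0 12 of 37 members lay above the median of all genes, and 15 of 37 did on day 3 and on day 5. These calls and errors rested on a spread estimated over all 36 libraries, including shallow CBNE and PE. With only CE, ME, SNE and INPUT libraries 18 members were called higher and 17 lower on day 0, 19 and 15 on day 3, and 22 and 15 on day 5. The share of all genes called in that fit is not given here. Members named below as not called were so in the fit over all 36 libraries.

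How the libraries were scaled decided the split of these calls. With every library set to a common median the members split into 4 higher and 20 lower on day 0, 5 and 22 on day 3, and 5 and 23 on day 5. With totals taken over nuclear-encoded protein-coding genes they split into 21 and 8, 23 and 4, and 23 and 5. CLK4, SRSF4, SRSF11 and HNRNPLL were called higher in 39 of 39 fits over the 3 days and all alternatives, and CLK1 in 38 of 39. HNRNPA1P48, HNRNPAB, HNRNPF and SRSF9 were called lower in 39 of 39, and HNRNPA0 in 38 of 39. HNRNPUL1, HNRNPK, SRSF3, HNRNPL, HNRNPH2, HNRNPA1L2 and SRSF8 were also below 0 in 39 of 39 fits, though not always called. The remaining members had both signs among the fits, and their directions below hold for TPM as deposited.

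**Figure D1:**
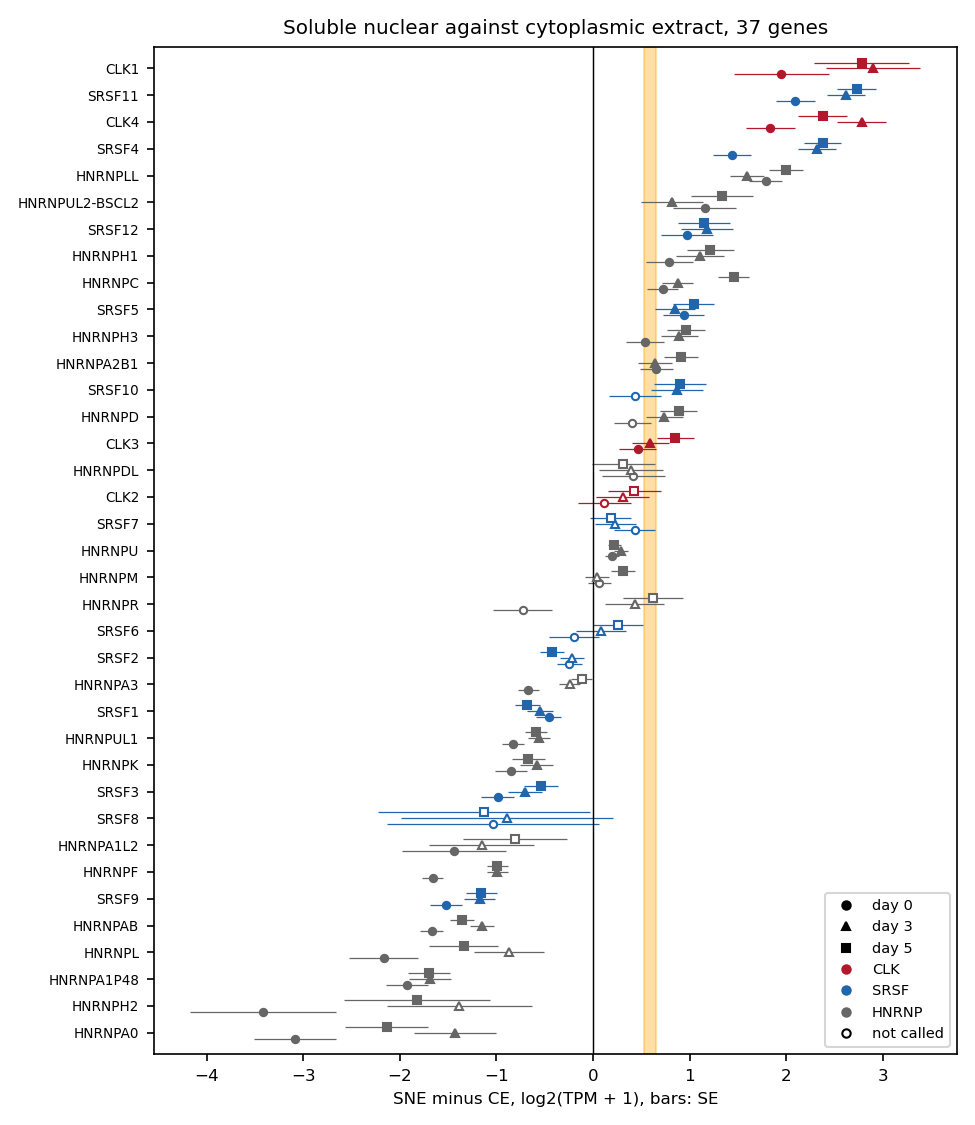
Difference between SNE and CE on the log2(TPM + 1) scale for the 37 members tested, with 1 point per day (circle, day 0; triangle, day 3; square, day 5), bars of 1 SE, open points where not called, and an orange band for the medians of all genes on the 3 days. CLK1, SRSF11, CLK4 and SRSF4 lie at the top, and HNRNPA0, HNRNPH2 and HNRNPA1P48 at the bottom.

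CLK1 and CLK4 are close relatives of the CLK family. CLK1 held 26.1 and 24.98 TPM in CE and 96.7 and 106 TPM in SNE on day 0. On day 3 it held 15.8 and 18.7 TPM in CE and 136 and 133 TPM in SNE, and on day 5 it held 26.2 and 27.9 TPM in CE and 190 and 194 TPM in SNE. Every SNE library was above every CE library of any day. The differences on the log2(TPM + 1) scale were 1.95 ± 0.49 (SE, n = 2 per group, limma adjusted p = 0.0022), 2.90 ± 0.49 (limma adjusted p = 3.9e-05) and 2.78 ± 0.49 (limma adjusted p = 5.4e-05).

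CLK4 was the lower of the pair and had the same order, with 9.09 and 9.44 TPM in CE and 35.3 and 35.99 TPM in SNE on day 0. Its CE values were 4.15 and 4.83 TPM on day 3 and 7.46 and 7.52 TPM on day 5, and its SNE values were 37.05 and 36.5 TPM and 39.1 and 47.5 TPM. The groups did not overlap on any day, and the differences were 1.84, 2.78 and 2.38, each ± 0.25 (SE, n = 2 per group, all called). CLK2 and CLK3, the other two kinases, were closer to even. CLK3 held 9.14 and 10.2 TPM in CE and 13.4 and 14.0 TPM in SNE on day 0, and was called higher on the 3 days by 0.46, 0.59 and 0.85, each ± 0.19. CLK2 held 29.7 and 29.6 TPM in CE and 32.4 and 32.0 TPM in SNE on day 0. It differed by 0.12, 0.31 and 0.43, each ± 0.27, and was not called on any day. At the common median both CLK2 and CLK3 were lower in SNE on all 3 days.

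In total the 4 CLK mRNAs summed to 74.1 ± 0.0785 TPM in CE and 183 ± 7.52 TPM in SNE on day 0 (SD, n = 2), and to 66.3 ± 0.211 and 283 ± 9.66 TPM on day 5. The SRSF mRNAs were about as high in both extracts, with sums of 4139 ± 33.9 TPM in CE and 3805 ± 13.5 TPM in SNE on day 0. HNRNP mRNAs summed to 7878 ± 7.51 TPM and 7002 ± 38.4 TPM. As a share of nuclear-encoded protein-coding TPM all 3 sums were higher in SNE on day 0, with 0.0318% against 0.00897% for CLK, 0.661% against 0.501% for SRSF and 1.22% against 0.953% for HNRNP.

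**Figure D2:**
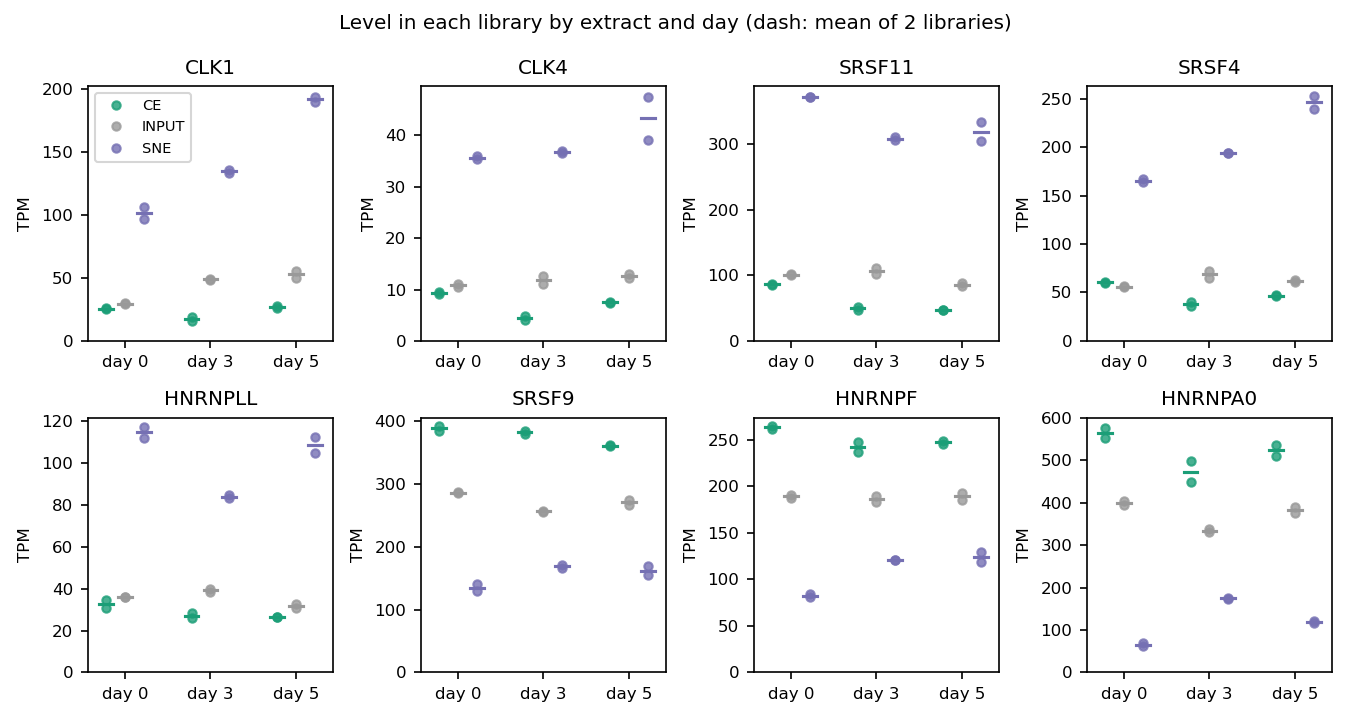
TPM of 8 members in each CE, INPUT and SNE library by day, with a dash at the mean of 2 libraries. CLK1, CLK4, SRSF11, SRSF4 and HNRNPLL are highest in SNE on every day, whereas SRSF9, HNRNPF and HNRNPA0 are highest in CE and lie between in INPUT.

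Among the SR proteins SRSF11 and SRSF4 led. SRSF11, an SR protein also known as p54, held 85.4 and 87.2 TPM in CE and 373 and 372 TPM in SNE on day 0, and 46.8 and 47.6 TPM in CE and 305 and 333 TPM in SNE on day 5. The groups were far apart, with differences of 2.10, 2.62 and 2.73 over the 3 days, each ± 0.20 (SE, n = 2 per group, all called). SRSF4, one of the longest of the classical SR proteins, held 60.1 and 60.8 TPM in CE and 164 and 167 TPM in SNE on day 0. On day 5 SRSF4 held 47.0 and 46.1 TPM in CE and 240 and 252 TPM in SNE, the highest SRSF4 values of any CE, SNE or INPUT library.

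SRSF12 and SRSF5 followed. SRSF12, a low-abundance member related to SRSF10, held 7.95 and 7.39 TPM in CE and 15.9 and 16.1 TPM in SNE on day 0, a difference of 0.97 ± 0.27 (SE, n = 2 per group, limma adjusted p = 0.0045). SRSF5 held 39.2 and 42.5 TPM in CE and 78.3 and 80.2 TPM in SNE, a difference of 0.94 ± 0.21 (limma adjusted p = 0.00075, n = 2 per group). Both were called on days 3 and 5 too, but at the common median SRSF5 lay below 0 on days 3 and 5 and SRSF12 on day 5.

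SRSF9, SRSF8 and SRSF3 were at the cytoplasmic end of the family. SRSF9 held 385 and 393 TPM in CE and 130 and 140 TPM in SNE on day 0, with differences of -1.52, -1.17 and -1.16 over the 3 days, each ± 0.16 and called. SRSF8, an SRSF2 relative with a coding sequence on a single exon, held 67.9 and 63.4 TPM in CE and 28.1 and 35.05 TPM in SNE on day 0. Its difference of -1.04 ± 1.10 was not called (limma adjusted p = 0.47, n = 2 per group), and its error was the largest of the family. That error was estimated over all 36 libraries and is not the spread of these CE and SNE libraries alone. In CBNE of day 3, for example, SRSF8 held 0 and 20.6 TPM. SRSF3, one of the smallest SR proteins, was called lower on all 3 days by -0.99, -0.71 and -0.53, each ± 0.18. SRSF2, the most abundant SR mRNA here, held 1340 and 1301 TPM in CE and 1134 and 1094 TPM in SNE on day 0 and was called on day 5 alone, at -0.43 ± 0.13.

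Among the hnRNPs HNRNPLL led the nuclear end. HNRNPLL, an HNRNPL relative known for its part in alternative splicing in lymphocytes, held 30.6 and 34.5 TPM in CE and 112 and 117 TPM in SNE on day 0. The differences were 1.79, 1.59 and 2.00, each ± 0.17 (SE, n = 2 per group, all called). Its paralog HNRNPL went the other way on day 0, with 155 and 145 TPM in CE, 31.0 and 34.3 TPM in SNE and a difference of -2.17 ± 0.36. HNRNPL was named after its values were seen, and its 2 INPUT libraries of day 0 differed widely, with 88.7 and 49.1 TPM.

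HNRNPH1, HNRNPC and HNRNPUL2-BSCL2 were the next members called higher. HNRNPH1, which binds runs of G, held 78.1 and 71.8 TPM in CE and 119 and 143 TPM in SNE on day 0, a difference of 0.79 ± 0.24 (limma adjusted p = 0.010, n = 2 per group). HNRNPC, which binds runs of U in introns, held 218 and 226 TPM in CE and 359 and 374 TPM in SNE, a difference of 0.72 ± 0.16 (limma adjusted p = 0.00074, n = 2 per group). Both were called on all 3 days, but at the common median HNRNPH1 was below 0 on all 3 days and HNRNPC on days 0 and 3. The readthrough HNRNPUL2-BSCL2 was at most 2.45 TPM in CE, SNE and INPUT.

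HNRNPU and HNRNPM differed little between the extracts. HNRNPU, also known as scaffold attachment factor A, held 759 and 745 TPM in CE and 863 and 857 TPM in SNE on day 0, and was called on the 3 days with differences of 0.19, 0.29 and 0.22, each ± 0.07. HNRNPM held 183 and 180 TPM in CE and 186 and 194 TPM in SNE, a difference of 0.07 ± 0.12 that was not called (limma adjusted p = 0.71, n = 2 per group), and was called on day 5 alone, at 0.31 ± 0.12. At the common median both were called lower in SNE on all 3 days.

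HNRNPA0 and HNRNPH2 had the lowest nuclear share. HNRNPA0, a single-exon gene whose protein binds AU-rich elements, held 552 and 576 TPM in CE and 70.0 and 61.4 TPM in SNE on day 0, and 449 and 498 TPM against 176 and 174 TPM on day 3. The differences were -3.08, -1.43 and -2.14, each ± 0.43 (SE, n = 2 per group, all called). HNRNPH2, a close relative of HNRNPH1 on the X chromosome, held 205 and 215 TPM in CE and 17.1 and 20.6 TPM in SNE on day 0, and was called on days 0 and 5 at -3.42 and -1.82, each ± 0.75. HNRNPF, the third of that G-run binding group, held 265 and 262 TPM in CE and 84.1 and 81.1 TPM in SNE on day 0, with differences of -1.66, -0.99 and -0.99, each ± 0.11.

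Gene structure moved with these differences. Members with 1 or 2 exons (HNRNPA0, HNRNPA1L2, HNRNPA1P48, HNRNPH2 and SRSF8) all lay below 0, with a median over the 3 days of -1.77, and 21 of 31 members with 3 or more exons lay above 0, with a median of 0.28. The median is the value of HNRNPA1P48, and HNRNPA1P48 and HNRNPA1L2 may hold reads of the multi-exon HNRNPA1, whereas HNRNPA0, HNRNPH2 and SRSF8 had means of -2.22, -2.21 and -1.02. The readthrough HNRNPUL2-BSCL2 had no exon count. Over all protein-coding genes tested the medians were -0.52 for 1095 genes with 1 or 2 exons and 0.65 for 13761 with 3 or more. All 8 members with 4 or more annotated kept introns lay above 0, from 0.24 (HNRNPU) to 2.54 (CLK1), with a median of 0.84. Of the 8 members with 1 to 3 kept introns 4 lay above 0, and of the 21 with none 10 did, with medians of 0.34 and -0.30. Over all protein-coding genes the order was the opposite, with medians of 0.16 for 848 genes with 4 or more, 0.48 for 2650 with 1 to 3 and 0.63 for 11474 with none. CLK3 and HNRNPA2B1 reach 4 only because overlapping introns were counted separately. Counted by retained-intron transcripts, 8 of 12 members with 4 or more lay above 0, the lowest at -1.46. Their median was 0.79, beside 0.21 for 12 with 1 to 3 and 0.05 for 13 with none. Over all protein-coding genes these medians were 0.68, 0.73 and 0.44. These classes were set after the values were seen and are a description. Whether reads in introns added to the total RNA values of these classes was not tested. SRSF11 shows that the classes did not sort every member, since it had no annotated kept intron and a mean difference of 2.48.

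**Figure D3:**
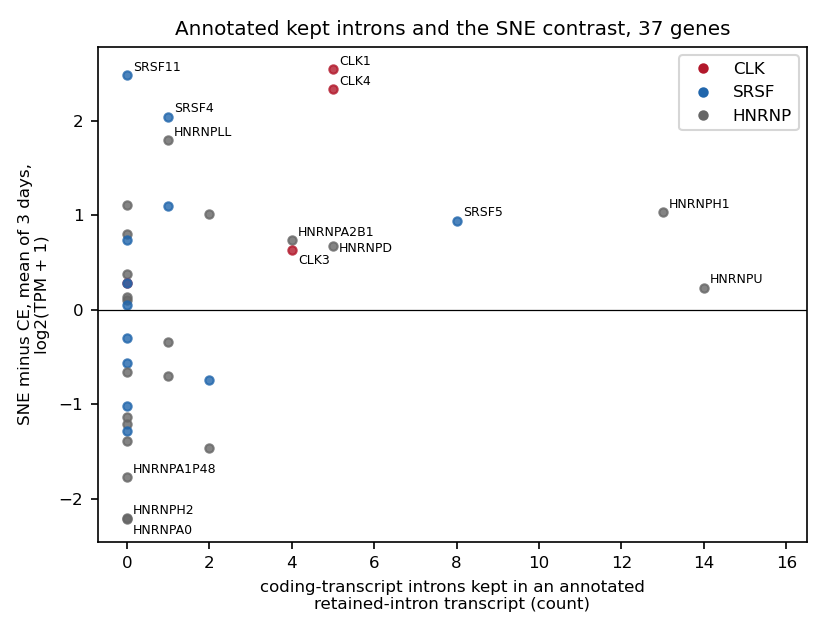
Mean difference between SNE and CE over the 3 days on the log2(TPM + 1) scale against the number of coding-transcript introns that an annotated retained-intron transcript keeps, for the 37 members tested. The 8 genes with 4 or more kept introns lie above 0, and genes with none span the whole range from -2.22 to 2.48.

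Members with an exon annotated only in decay transcripts also lay higher, 12 of 15 above 0 with a median of 0.68, against 10 of 22 and a median of -0.32 for the rest. The 12 include the readthrough HNRNPUL2-BSCL2 at 1.10, which is in this class only for want of a coding transcript. Here all protein-coding genes had the same order, with medians of 1.07 for 2816 genes and 0.47 for 12156.

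Whether these differences changed with differentiation was tested as the change of the SNE against CE difference from day 0. HNRNPF alone was called by day 3, with a difference that was 0.67 ± 0.15 higher than on day 0 (limma adjusted p = 0.0090, n = 2 per group). That is 1 of 37 members, where 4.48% of all genes were called higher and 2.25% lower. By day 5, 5 of 37 members were called higher and 0 lower, against 11.5% and 2.47% of all genes. In either direction 6.72% of all genes were called by day 3 and 14.0% by day 5, or 3.76% and 7.16% with a change of at least 1 also required, which left 0 members by day 3 and 1 by day 5. The 5 were HNRNPA3, HNRNPC, HNRNPF, HNRNPR and SRSF4, with changes of 0.55 ± 0.15, 0.74 ± 0.23, 0.67 ± 0.15, 1.35 ± 0.43 and 0.94 ± 0.28 (SE). At an unadjusted p under 0.05 limma gave 8 members for day 3 and 6 for day 5.

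The called members moved in different ways in the libraries. HNRNPF was below its CE level throughout, but in SNE it went from 84.1 and 81.1 TPM on day 0 to 121 and 121 TPM on day 3 and 129 and 119 TPM on day 5, while CE stayed between 237 and 265 TPM. SRSF4 was higher in SNE on day 5 than on day 0 and lower in CE, as given above. HNRNPC went from 359 and 374 to 414 and 464 TPM in SNE between days 0 and 5, and from 218 and 226 to 158 and 160 TPM in CE. HNRNPR, an hnRNP related to SYNCRIP, held 18.5 and 22.3 TPM in CE and 14.3 and 9.81 TPM in SNE on day 0, and 18.5 and 15.5 TPM against 27.4 and 25.9 TPM on day 5. HNRNPA3, a relative of HNRNPA1 and HNRNPA2B1, held 849 and 839 TPM in CE and 539 and 522 TPM in SNE on day 0, and 697 and 672 TPM against 637 and 627 TPM on day 5.

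These counts rested on a spread estimated over all 36 libraries, including shallow CBNE and PE. With the 24 CE, ME, SNE and INPUT libraries alone, a fit chosen after seeing the data, 18 members were called higher and 1 lower for day 3, and 21 and 1 for day 5. Calls rose over all genes too, to 28.8% in either direction for day 3 and 38.5% for day 5. In that fit the change by day 3 was 0.95 ± 0.14 for both CLK1 and CLK4, 0.88 ± 0.080 for SRSF4 and 1.65 ± 0.14 for HNRNPA0 (SE, n = 2 per group, all called), and SRSF7 was the member called lower at -0.20 ± 0.070. Leaving out any 1 of the CE or SNE libraries of days 0 and 5 left 1 to 3 of the 5 members called by day 5, and at the common median 1 was called higher and 1 lower. The library numbers in the titles jump within day 5, with CE before the jump and SNE after it, so an effect of that jump and of the extract cannot be told apart on day 5. Nuclear RNA markers in SNE moved the same way, from 9709 to 10009 TPM on day 0 to 29496 to 29934 TPM on day 5, and their part in the change was not tested.

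Polyadenylated RNA of day 0 gave a second nuclear contrast from other libraries. CLK1, SRSF11 and CLK4 again led: CLK1 held 10.7 and 10.1 TPM in cytoplasm and 59.5 and 57.0 TPM in nucleus, a difference of 2.37 ± 0.07 (SE, n = 2 per group, limma adjusted p = 4.8e-06). SRSF11 held 116 and 116 TPM in cytoplasm and 544 and 540 TPM in nucleus, and CLK4 held 4.36 and 4.29 TPM and 16.9 and 14.7 TPM. The groups did not overlap for any of these 3 genes. Of 35 members tested, 19 were called higher in the nucleus and 10 lower, where 56.5% of all 16667 genes were called higher and 21.8% lower, 78.3% in all. A difference of at least 1 was reached by 6 of the called members and by 36.3% of all genes. The median was 0.23 for the members and 0.50 for all genes, and at the common median the split was 9 higher and 21 lower, with protein-coding totals 17 and 11.

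All 4 CLK genes were called higher in polyA nucleus, with 0.84 ± 0.07 for CLK2 and 0.48 ± 0.10 for CLK3, as were 9 of 11 SRSF genes. SRSF6 was not called in SNE against CE on any day in the fit over all 36 libraries. In polyA RNA SRSF6 held 231 and 246 TPM in cytoplasm and 504 and 512 TPM in nucleus, a difference of 1.09 ± 0.04. HNRNPDL, an HNRNPD relative known to regulate its own mRNA by splicing, was also not called in SNE in that fit. It held 324 and 334 TPM in polyA cytoplasm and 771 and 775 TPM in polyA nucleus. SRSF3 was the lowest member, with 418 and 413 TPM in cytoplasm and 235 and 225 TPM in nucleus, a difference of -0.85 ± 0.04. HNRNPF and HNRNPA0 followed at -0.63 ± 0.03 and -0.59 ± 0.04.

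**Figure D4:**
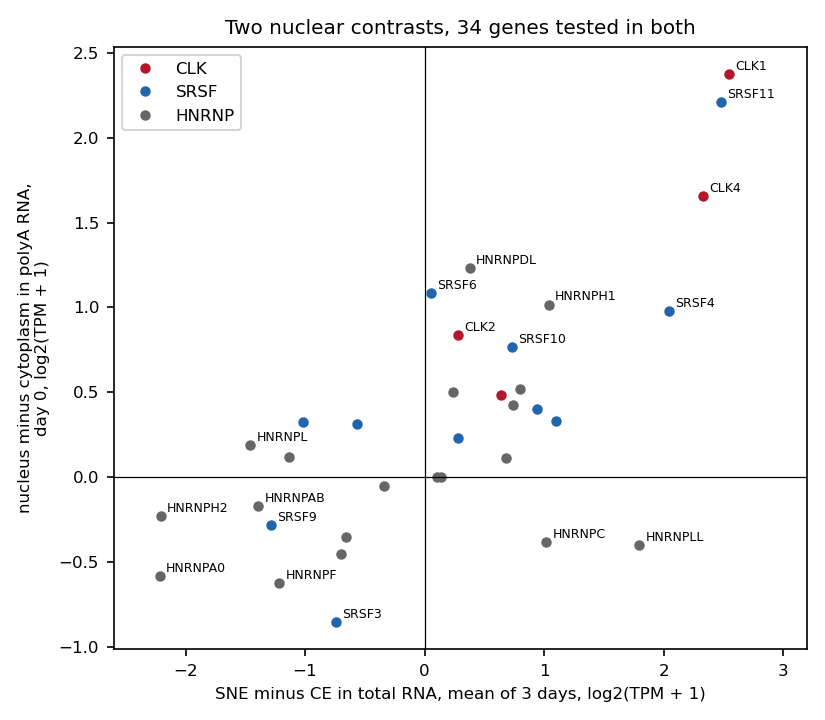
Nucleus minus cytoplasm in polyA RNA of day 0 against SNE minus CE in total RNA (mean of 3 days), both on the log2(TPM + 1) scale, for the 34 members tested in both. CLK1, SRSF11 and CLK4 lie at the upper right, and HNRNPC and HNRNPLL lie at the lower right, above 0 in SNE and below 0 in polyA nucleus.

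Both contrasts had the same sign in 27 of 34 members, 18 above 0 in both and 9 below 0 in both. Pearson's r was 0.70 and Spearman's rho 0.63 across these 34 genes, and 0.51 and 0.49 across 12582 protein-coding genes. Genes are not independent replicates and the contrasts come from different preparations, so these are descriptions. HNRNPLL differed in sign: it held 61.5 and 64.4 TPM in polyA cytoplasm and 46.9 and 47.8 TPM in polyA nucleus, a difference of -0.40 ± 0.05, against 1.79 ± 0.17 in total RNA of the same day. HNRNPC was likewise called lower in polyA nucleus (-0.38 ± 0.03) and higher in SNE. HNRNPM was just below 0 in polyA nucleus, and SRSF1, SRSF8, HNRNPA1L2 and HNRNPL were above 0 in polyA nucleus and below 0 in SNE. The total RNA values were also scaled to the whole gene span and the polyA values to exon length, so the contrasts compare unlike measures. Whether this, the polyA selection or the way the nuclei were prepared moved with these signs was not tested.

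In the membrane extract 0 members were called higher than in CE on any day, and 27, 15 and 13 of 37 were called lower on days 0, 3 and 5. Among all genes 22.4%, 11.7% and 11.3% were called lower and 6.54%, 5.37% and 7.53% higher, in all 29.0%, 17.1% and 18.9%. Called differences of at least 1 were found in 23, 5 and 5 members and in 16.6%, 7.82% and 8.09% of all genes. At an unadjusted p under 0.05 limma gave 28, 22 and 20 members in either direction. On day 0 the lowest were HNRNPH2 at -2.91 ± 0.75 and HNRNPA0 at -2.55 ± 0.43, while CLK1, CLK4 and SRSF11 lay at 0.03 ± 0.49, 0.01 ± 0.25 and 0.06 ± 0.20 and were not called. The direction turned with the scaling: with totals over nuclear-encoded protein-coding genes 11 members were called higher and 9 lower on day 0, 15 and 1 on day 3, and 16 and 0 on day 5.

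In the pellet extract, read at lower depth, 31 of 37 members were called lower than in CE on day 0 and 0 higher, where 34.2% of all genes were called lower and 14.2% higher. On days 3 and 5, 7 members were called higher on each day, and 18 and 11 lower, beside 34.9% and 32.3% higher and 11.6% and 9.66% lower among all genes. In either direction 48.3%, 46.6% and 41.9% of all genes were called on the 3 days, and 34.9%, 33.7% and 27.6% with a difference of at least 1, beside 27, 14 and 4 members. On day 3 the 7 included CLK4 at 1.69 ± 0.25, CLK1 at 1.497 ± 0.49, SRSF11 at 1.21 ± 0.20, SRSF4 at 1.14 ± 0.20 and CLK3 at 0.97 ± 0.19. CLK1, CLK4, SRSF11 and SRSF4, which led in SNE, were thus also above CE in the pellet extract of that day for TPM as deposited. On day 0 CLK1 and CLK4 stood for only a few reads in each PE library, so no difference was read for them. At the common median 2, 1 and 0 members were called higher in PE on the 3 days and 26, 27 and 28 lower, and with protein-coding totals 7, 14 and 16 higher and 22, 7 and 3 lower. On day 5 the 7 members higher became 3 without PE replicate 2, 4 without CE replicate 2, 6 without CE replicate 1 and 9 without PE replicate 1.

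The chromatin-bound extract was not tested. Its HNRNP mRNAs summed to 1708 ± 20.5 TPM on day 0, 2090 ± 192 TPM on day 3 and 1185 ± 24.03 TPM on day 5 (SD, n = 2), and CLK mRNAs to 66.5 ± 1.68, 63.4 ± 3.42 and 44.0 ± 8.09 TPM. CLK1 was low there, from 5.75 to 26.8 TPM over the 6 libraries, and SRSF11 lay between 21.4 and 47.6 TPM, below its level in every SNE library. SRSF4 reached 82.7 to 185 TPM and HNRNPU 246 to 560 TPM. At this depth the CLK1 values stand for only a few reads each, so no order among these libraries was read from them.

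The INPUT libraries compared the days without fractionation. SRSF1, HNRNPU and HNRNPM fell by day 5 and SRSF12 rose, and the other 33 members were not called. SRSF1, the founding SR protein, held 514 and 485 TPM on day 0, 417 and 428 TPM on day 3 and 362 and 350 TPM on day 5. All day 5 libraries were below all day 0 libraries, and the change by day 5 was -0.49 ± 0.13 (SE, n = 2 per group, limma adjusted p = 0.0087). HNRNPU held 651 and 633 TPM on day 0 and 443 and 497 TPM on day 5, and HNRNPM held 140 and 142 TPM and 106 and 106 TPM. Their changes were -0.45 ± 0.07 and -0.40 ± 0.12 (limma adjusted p = 5.1e-05 and 0.019, n = 2 per group).

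SRSF12 was at 7.25 and 5.98 TPM on day 0, 9.57 and 10.2 TPM on day 3 and 11.0 and 13.3 TPM on day 5, without overlap between the days. The change by day 5 was 0.79 ± 0.27 (limma adjusted p = 0.038, n = 2 per group). SRSF8 and CLK1 had larger values that were not called. CLK1 held 30.1 and 29.01 TPM on day 0, 48.1 and 49.5 TPM on day 3 and 49.9 and 55.9 TPM on day 5, a difference of 0.82 ± 0.49 (limma adjusted p = 0.28, n = 2 per group). SRSF8 held 45.8 and 44.8 TPM on day 0 and 86.1 and 86.7 TPM on day 5, a difference of 0.92 ± 1.10 (limma adjusted p = 0.68, n = 2 per group). The INPUT libraries of day 0 did not overlap with those of day 5 for either gene.

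**Figure D5:**
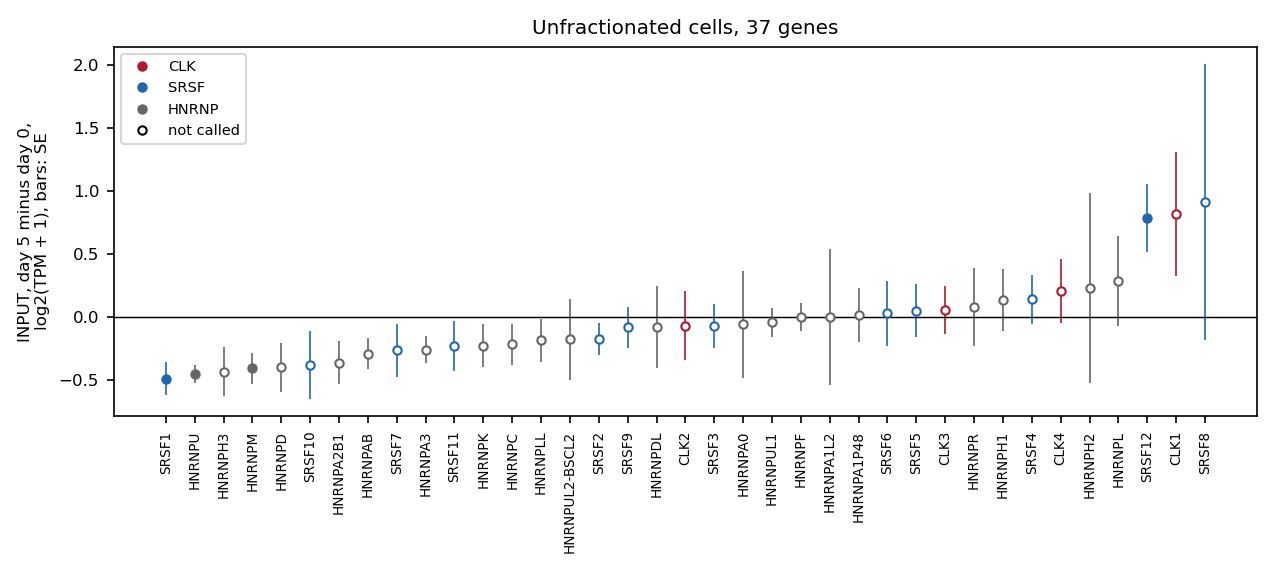
Difference between day 5 and day 0 in INPUT on the log2(TPM + 1) scale for the 37 members tested, in order, with bars of 1 SE and open points where not called. SRSF1, HNRNPU and HNRNPM are called below 0 and SRSF12 above 0, and the bars of SRSF8 and HNRNPH2 are the widest.

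Only 4 of 37 members were called by day 5, 1 higher and 3 lower, where 10.6% of all genes were called higher and 13.3% lower, 23.9% in all. By day 3 limma called 0 members, beside 8.32% of all genes higher and 7.01% lower, and gave 2 at an unadjusted p under 0.05. All genes called by day 3 came to 15.3%. With a change of at least 1 required, 0 members were left on either day, beside 7.44% and 12.8% of all genes. These counts moved with the libraries that set the spread. In the fit to CE, ME, SNE and INPUT libraries 5 members were called higher and 6 lower by day 3, and 3 higher and 14 lower by day 5. Of all genes that fit called 39.1% by day 3 and 48.3% by day 5 in either direction. The 3 members called higher by day 5 were CLK1 at 0.82 ± 0.098, SRSF8 at 0.92 ± 0.17 and SRSF12 at 0.79 ± 0.11 (SE). Leaving out any 1 INPUT library of days 0 or 5 left 1 or 2 members called. HNRNPU was called in each of these 4 fits and SRSF12 and HNRNPM in none. At the common median 2 members were called higher and 0 lower.

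The sums moved in the same directions: HNRNP mRNAs went from 6389 ± 36.7 TPM on day 0 to 5424 ± 157 TPM on day 5, SRSF mRNAs from 3338 ± 35.1 to 2999 ± 4.54 TPM, and CLK mRNAs from 73.8 ± 2.24 to 98.2 ± 6.99 TPM (SD, n = 2). The cells themselves changed over these days. In INPUT 6 mesoderm markers summed to 6.41 to 8.26 TPM on day 0 and 1299 to 1386 TPM on day 5, and 5 stem cell markers to 2368 to 2370 TPM and 1109 to 1136 TPM. Markers of other cell types rose as well, with 3 endoderm markers at 3.64 to 4.86 TPM on day 0 and 917 to 946 TPM on day 5, and 5 amnion and trophoblast markers at 2.63 to 3.13 and 433 to 443 TPM. The part of this change in cell makeup in the INPUT results was not tested.

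Other splicing genes, grouped by role, were compared in the same way, beside 39.8%, 40.1% and 44.1% of all genes called higher and 11.6%, 9.28% and 10.9% lower in SNE on the 3 days. Directions and counts are for TPM as deposited unless the scaling is named. Of 14 SR-like regulators, proteins with RS domains outside the SRSF family, 10, 12 and 12 were called higher in SNE than in CE on days 0, 3 and 5 and 2, 1 and 2 lower. The split was 7, 10 and 6 higher and 5, 3 and 5 lower at the common median. SREK1, an SR-related splicing regulator, was the highest of them at 2.16, 2.91 and 3.10, each ± 0.19. RNPS1, a component tied to the exon junction complex, had the lowest mean over the 3 days, with -0.59, -0.54 and -0.43, each ± 0.11. Another regulator was lower on days 0 and 5. LUC7L, a U1-associated factor, had the largest called change in INPUT by day 5, at -0.60 ± 0.14.

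Of 8 kinases and transport factors for SR proteins, 5, 5 and 6 were called higher in SNE and 1, 1 and 2 lower, and at the common median 4 higher and 3 lower on each day. SRPK2, a cytoplasmic SR protein kinase, held 11.6 and 11.7 TPM in CE and 70.0 and 72.3 TPM in SNE on day 0, a difference of 2.51 ± 0.14, and it fell by 0.57 ± 0.14 in INPUT by day 5. ALYREF, an mRNA export adaptor, was at the other end with -2.57 ± 0.34 on day 0. Of 9 tested factors of nonsense-mediated decay, 7, 8 and 8 were called higher and 1, 0 and 0 lower, and at the common median 4, 3 and 4 higher and 2 lower on each day. UPF2 had the highest mean over the 3 days, with 1.5003, 1.85 and 2.44, each ± 0.16, although another factor was higher on days 0 and 3. UPF1, the helicase of the pathway, was lower on day 0 (-0.63 ± 0.13), higher on day 3 (0.65 ± 0.13) and not called on day 5.

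Of 28 core spliceosome proteins, 3, 9 and 6 were called higher in SNE and 18, 15 and 14 lower. They split into 2, 2 and 3 higher and 24, 21 and 24 lower at the common median, and with protein-coding totals 6, 10 and 9 higher and 9, 5 and 7 lower. U2AF1, which recognises the 3′ splice site, was the highest at 2.21, 2.98 and 3.38, each ± 0.31, although a near-identical copy of U2AF1 is annotated and makes its value uncertain. SF3B5, a small subunit of the U2 snRNP factor SF3b, was the lowest at -4.30, -3.83 and -4.18, each ± 1.31. SNRPD1, an Sm ring protein, fell by 0.70 ± 0.10 in INPUT by day 5. Of 21 tested hnRNP-type RNA-binding proteins outside the HNRNP symbols, 11, 11 and 13 were called higher and 5, 2 and 3 lower, and at the common median 6, 7 and 7 higher and 9, 10 and 8 lower. On day 0 they ran from MBNL1 at 3.15 ± 0.23 to PCBP1, a poly(C)-binding protein, at -3.77 ± 1.05.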

How the data were processed

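Gene-level TPM of 36 total RNA and 4 polyA RNA libraries was used. The deposited files hold TPM, length-scaled shares of each library, in both tables; the unit was read from the values, which sum to 989513 to 998559 in the total RNA libraries. Per the submitters' processing notes, which give no roles or order, Salmon 1.3.0, featureCounts 1.6.2, HISAT2 2.0.5 and GATK were used with the build hg38. All 57939 gene identifiers of the total table and 58216 of the polyA table matched GENCODE release 29, from which positions, transcript types and sequences were taken (GRCh38). The totals of reads were not used, and depth was estimated from the lowest values.

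Values were taken as log2(TPM + 1), and genes with at least 1 TPM in at least 2 libraries were tested with limma 3.58.1 in R 4.3.3 (Benjamini-Hochberg over all genes tested, threshold 0.05). That left 24735 genes in total RNA, fitted over 18 groups with 18 residual degrees of freedom, and 16667 in polyA RNA with 2. Fold changes on this scale understate the change of low genes. Tables were made with Python 3.11.15 and pandas 2.3.3. The fit was tested on simulated data for SNE against CE on day 0 with 24735 genes and 200 changed. It recovered 57 of 100 changes of size 1 and 5 of 100 of size 0.5 (log2), with 3 false calls. In the data 51.4% of genes were called for this contrast, which makes the adjusted threshold easier to pass than in the simulation. The share recovered therefore does not carry over to the data.

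The members and gene lists were chosen with earlier results of these data known. Values per library were given for all 4 CLK genes, the 4 SRSF and 4 HNRNP members with the highest and the 2 of each with the lowest mean SNE against CE difference, members called for a change of that difference, and the 4 largest called INPUT changes by day 5; other members were named where a sentence needed them. Of each list, the genes with the highest and lowest SNE against CE mean and the largest called INPUT change could be named. Alternatives were the scaling, pseudocount, filter, a fold minimum, the libraries fitted, library weights, a replicate block and leaving out each library. No pair of replicates held the same values, with at least 15552 genes differing. CBNE was not tested because of its depth.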

Additional observations from a re-analysis of the deposited data

Results flagged for a closer look

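The difference between SNE and CE in 5 members was not the same on all days by a test of the change itself, the interaction of extract and day in limma. For HNRNPF the difference was higher than on day 0 by 0.67 on day 3 and by 0.67 on day 5, on the log2(TPM + 1) scale. By day 5 it was higher by 1.35 for HNRNPR, 0.94 for SRSF4, 0.74 for HNRNPC and 0.55 for HNRNPA3. Each was called with n = 2 libraries per group over all 36 libraries. The count is not above the background, 5 of 37 members (13.5%) beside 14.0% of all genes by day 5 and 1 of 37 beside 6.72% by day 3. Leaving out any 1 CE or SNE library of days 0 and 5 left 1 to 3 members called by day 5. In the fit to CE, ME, SNE and INPUT libraries SRSF7 was called lower, at -0.20 and -0.25, and at the common median 1 member was called lower by day 5.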

How the results depend on the processing

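Counts of calls moved with the fold minimum, the scaling and the libraries that set the spread; the fold minimum only removes calls, and for the others the cause was not tested. The fits to CE, ME, SNE and INPUT only and with library weights were chosen after seeing the data. Counts below are of members called in either direction.

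With a log2 fold of at least 1 required in addition, SNE against CE had 14, 11 and 16 calls on days 0, 3 and 5, ME against CE 5 on day 3 and 5 on day 5, and PE against CE 14 on day 3 and 4 on day 5. The change of SNE against CE had 0 by day 3 and 1 by day 5, INPUT 0 by day 5, and polyA RNA 6. With only the libraries compared, ME had 26 on day 5, PE 20 on day 0 and 10 on day 5, the change 19 and 28 by days 3 and 5, and INPUT 13 and 18. Beside these, 33.1% of all genes were called for ME and 33.2% and 30.3% for PE. For the change 27.9% and 37.4% of all genes were called, and for INPUT 32.2% and 43.5%. With only CE, ME, SNE and INPUT, ME had 30 and 31 on days 3 and 5, the change 19 and 22, and INPUT 11 and 17. Among all genes that fit called 41.3% and 44.7% for ME, 28.8% and 38.5% for the change, and 39.1% and 48.3% for INPUT. With library weights the members called were 28 and 30 for ME, 18 and 21 for the change, and 10 and 19 for INPUT. The shares of all genes were then 36.8% and 46.3%, 31.2% and 38.5%, and 42.3% and 51.9%. At the common median PE had 28 on day 5, the change 2 by day 5, and INPUT 2 by day 3 and 2 by day 5. Beside these, 48.8% of all genes were called for PE, 10.0% for the change, and 16.9% and 24.5% for INPUT. With protein-coding totals the change had 3 by day 3 and 3 by day 5, beside 7.20% and 12.3% of all genes.

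Leaving out 1 library at a time gave 22 to 24, 22 to 24 and 25 to 27 calls for SNE against CE on days 0, 3 and 5, 22 to 24, 10 to 12 and 13 for ME, and 29 to 32, 18 to 19 and 14 to 19 for PE. It gave 1 and 1 to 3 for the change by days 3 and 5, 0 and 1 to 2 for INPUT, and 25 to 29 for polyA RNA.

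Directions that reversed did so with the scaling. At the common median SNE against CE on day 0 was -0.15 for HNRNPC, -0.81 for HNRNPM, -0.68 for HNRNPU, -0.082 for HNRNPH1, -0.76 for CLK2 and -0.41 for CLK3. On day 3 it was -0.23 for HNRNPC, -1.07 for HNRNPM, -0.26 for SRSF5, -0.82 for HNRNPU, -0.00085 for HNRNPH1, -0.80 for CLK2, -0.52 for CLK3 and -0.29 for HNRNPUL2-BSCL2. On day 5 it was -0.99 for HNRNPM, -0.26 for SRSF5, -0.68 for HNRNPR, -1.08 for HNRNPU, -0.15 for SRSF12, -0.086 for HNRNPH1, -0.87 for CLK2 and -0.45 for CLK3. With protein-coding totals SRSF1 was 0.062 on day 0 and 0.011 on day 3, and HNRNPA3 0.32 on day 3 and 0.34 on day 5. In polyA RNA at the common median SRSF5 was -0.16, SRSF1 -0.24, HNRNPU -0.055, SRSF12 -0.23, CLK3 -0.074 and SRSF8 -0.23. Of the other values of named members under an alternative, 1127 kept direction and call, 143 gained a call and 35 lost one.

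Replicates with the same number did not deviate together: their deviations from the group means correlated at -0.04 to 0.07 over all pairs of total RNA groups. With a replicate block the members called numbered 26, 25 and 29 for SNE against CE, 27, 15 and 13 for ME, 30, 25 and 18 for PE, 1 and 5 for the change, 0 and 4 for INPUT, and 29 in polyA RNA.

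With 2 libraries per group no single library can be checked against its group, and depth in PE and CBNE limits low members such as CLK4.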
